A study of Sus scrofa with 32 samples.

Results

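Luminal epithelium (LE) and glandular epithelium (GE) of the same pregnant gilts, young sows without a previous litter, were compared on Day 14, when pig conceptuses begin to attach to the endometrium. The comparison rests on 6 of the 32 samples of the series, LE and GE of gilts P139, P39 and P43, which were chosen by the tissue and animal number in their labels, and on the 12985 of 30185 counted genes that the authors kept as detectable in LE or in GE. Gilts are named by the group letter and number of their libraries, so that gilt P139 gave the LE library PL139 and the GE library PG139. Pregnant gilt P41 was left out because its GE was not analysed here. Prepuberal gilts had been synchronised with eCG and hCG, and the pregnant ones had been inseminated with semen of a German Landrace boar. LE and GE of 4 cyclic gilts, which had been treated alike but inseminated with the supernatant of semen of the same boar, served to ask whether a difference between the compartments was also present without pregnancy. Pregnant tissue came from the reddened zones where conceptuses had lain, after the conceptuses had been removed, and cells were cut from frozen sections by laser capture microdissection by their position in the tissue. Each compartment of each gilt gave 1 library, so all values below are n = 3 gilts, and values of 3 libraries are given in the order of gilts P139, P39 and P43.

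LE is a single sheet of cells that lines the uterine lumen and is the surface to which the conceptus attaches. GE invaginates from it into the stroma and is known as the main source of histotroph, the mixture of proteins, sugars and lipids that feeds the pig conceptus until the placenta works. In both, progesterone and estrogen act partly through stroma, and the transcription factor FOXA2 marks the glands of mice and other mammals. Glands and lumen also differ in ciliated cells, which move fluid with motile cilia built from dynein arms and radial spokes under the control of FOXJ1 and RFX factors.

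Library totals ranged from 3143100 to 4788094 counts, which sets 3 counts over a group at 0.292 CPM in LE and 0.256 CPM in GE. Counts were scaled to CPM, counts relative to the library's effective total, and tested per gene with the gilt as a block, and a gene was called at a false discovery rate of 5%. Ribosomal RNA genes took 11.5% to 14.4% of the counts of these libraries. Epithelial markers were high in both compartments, with the 17 markers summing to 3129 to 3469 CPM in LE and 2167 to 2706 CPM in GE, against at most 423 CPM in the blood vessel (BV) and stroma (S) captures of the same gilts. Markers of other cells differed between the epithelia. The 15 endothelial markers summed to 505 to 1305 CPM in LE and 25.5 to 237 CPM in GE, with 2368 to 3763 CPM in BV and 1097 to 3767 CPM in S, and the 14 markers of smooth muscle and pericytes to 441 to 1159 CPM in LE, 105 to 190.2 CPM in GE, 2541 to 10424 CPM in BV and 1638 to 2581 CPM in S. The 15 fibroblast markers summed to 12595 to 20068 CPM in LE, 4365 to 7502 CPM in GE, 37701 to 53693 CPM in BV and 49086 to 96357 CPM in S. Of the tested markers, 13 of 14 of fibroblasts, 10 of 14 of endothelium and 11 of 11 of smooth muscle and pericytes were called higher in LE, as were 15.5% of all genes tested. Of these markers 0 were called higher in GE by edgeR or DESeq2, and 0 had an unadjusted p under 0.05 in that direction. However, 1, 9 and 4 of the tested markers of these lists were detectable only in LE. For such genes the direction of a call is not independent of the filter. Among markers detectable in both compartments 12 of 13, 4 of 5 and 7 of 7 were called higher in LE, as were 13.4% of all such genes. In turn, no member of the last pair of lists was higher in LE than in both BV and S, whereas 2 called fibroblast markers, POSTN and THY1, were. Erythrocyte markers summed to 34.7 to 80.3 CPM in LE and 1.84 to 29.3 CPM in GE, and leukocyte markers to 119 to 189.9 CPM in LE and 148 to 234 CPM in GE, with 1 of 7 tested called in each direction, 28.6% in all, near the 28.7% of all genes. Conceptus markers summed to 46.5 to 52.6 CPM in LE, 3.29 to 13.5 CPM in GE and 37.2 to 122 CPM in BV and S. PAG1 had the highest mean of these markers in each compartment, at 14.7 CPM in LE, 4.63 CPM in GE, 73.1 CPM in BV and 42.8 CPM in S. IL1B2, CYP19A1, CYP19A2, CYP17A1 and CDX2 had no count in either epithelium. IFNG, a conceptus interferon, had 38 counts in LE (1.76, 0 and 9.62 CPM) and none in GE. PAG6 had 13 counts in LE and 1 in GE, and HAND1 11 in LE and none in GE. Of the LE and GE libraries, LE of gilt P43 held the highest level of each. IFNG had 2 counts in BV and 10 in S, PAG6 0 and 22, and HAND1 2 and 3. Of the 2 tested members 1, S100G, was called higher in LE, and the part of conceptus RNA in the genes higher in LE was not tested. The plot of marker sums by compartment shows LE between GE and the stromal captures for the endothelial, muscle and fibroblast lists. Fewer cells of a type and less RNA per cell cannot be told apart in such captures, and the part of stromal and vascular RNA in the genes higher in LE was not tested.

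**Figure D1:**
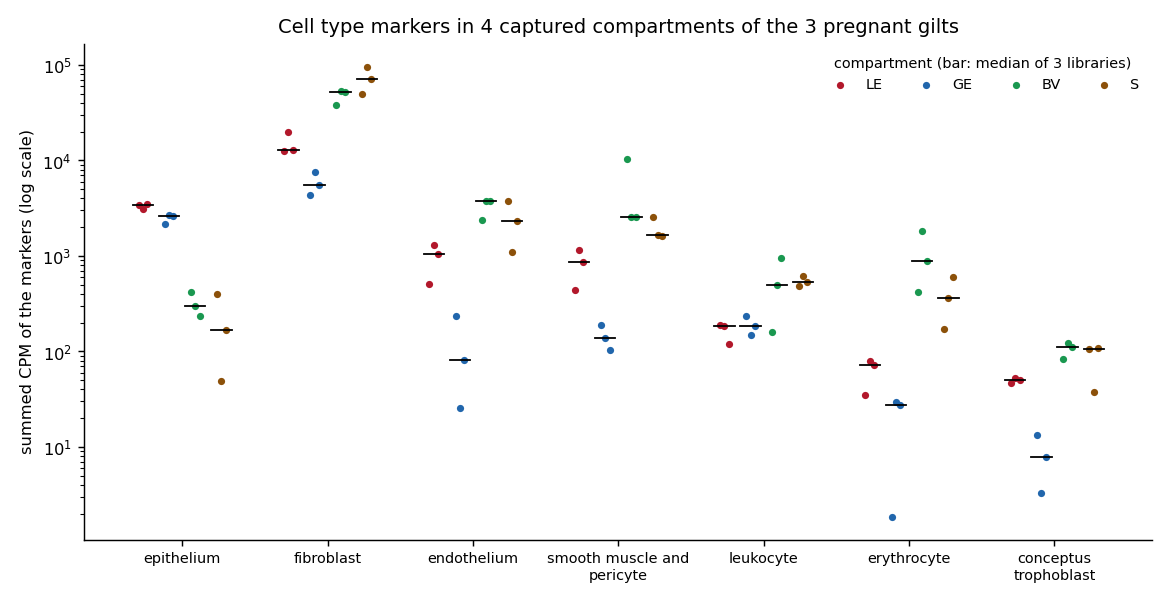
Summed CPM (log scale) of 7 lists of cell type markers in LE, GE, BV and S of the 3 pregnant gilts, with 1 point per library and a bar at the median. Endothelial markers reach 505 to 1305 CPM in LE and 25.5 to 237 CPM in GE, below most BV and S libraries, while epithelial markers are high in LE and GE.

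Across the transcriptome, 3732 of the 12985 genes were called, 28.7% of those tested. In LE 2008 genes were higher (15.5%) and in GE 1724 (13.3%), and 3722 of the called genes had the same sign in all 3 gilts, as had 62.7% of all tested genes. The 3 LE and 3 GE libraries did not overlap for 45.6% of all genes. Among the 10922 genes that were detectable in both compartments 1469 were higher in LE and 1307 in GE, 25.4% in all. Of the 1080 genes detectable only in LE 538 were called higher in LE and 1 in GE, and of the 983 detectable only in GE 416 were called higher in GE and 1 in LE. Detectable here means kept in the authors' table of that compartment, which was filtered over pregnant and cyclic libraries, so this status and the difference are not independent. Called genes differed by 1.84 in the median on the log2 scale where LE was higher and by -1.58 where GE was higher, and 462 and 387 of them by 3 or more. Means in BV or S were above both epithelia for 867 of the 2008 genes higher in LE, for 140 of the 1724 genes higher in GE and for 5112 of all tested genes. Leaving out gilt P43 left 622 genes higher in LE and 466 higher in GE, and leaving out gilt P39 left 1083 and 898; with 2 gilts a single residual degree of freedom remains. RNA of glandular genes was found in the LE library of gilt P139. For the 387 genes higher in GE by 3 or more on the log2 scale, the median LE level was 12.6% of the GE level in gilt P139, against 1.79% in gilt P39 and 2.46% in gilt P43. Leaving out gilt P139 left 1947 genes higher in LE and 1626 in GE, and all 3732 called genes kept their direction. The log2 ratio of SYT13 went from -7.71 to -9.46 without this gilt. That of BHLHA15 went from -5.89 to -12.4, with no count left in LE. With each gilt left out in turn, FOXA2 ranged from -11.0 to -4.81, HYDIN from -6.92 to -4.43 and FOXJ1 from -6.9 to -4.04. The separate part of library PL139 in these shifts was not tested.

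**Figure D2:**
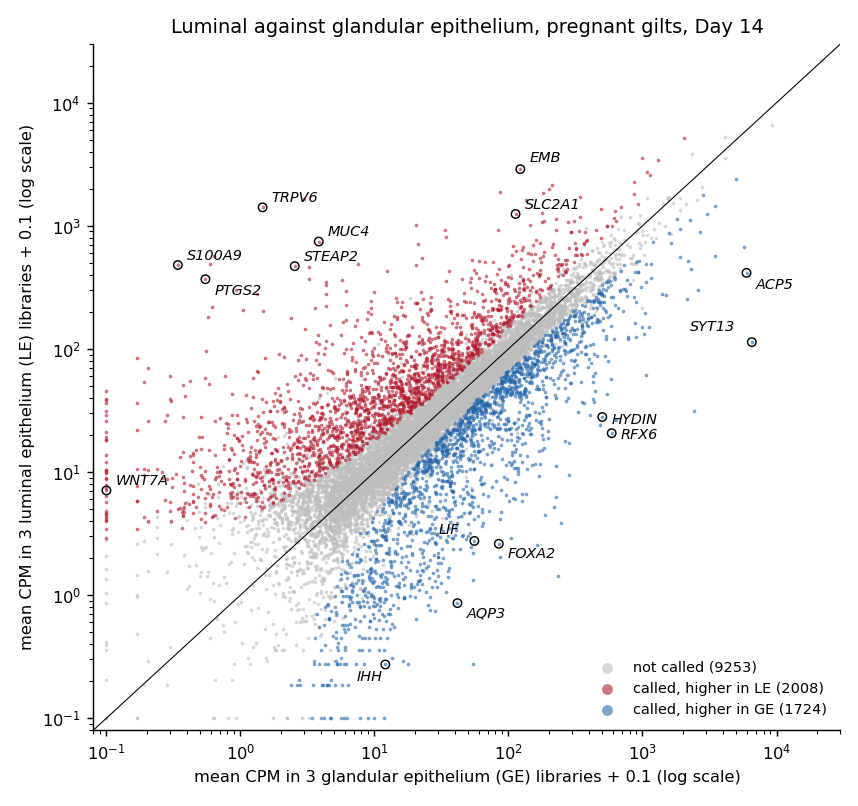
Mean CPM of 3 LE libraries against mean CPM of 3 GE libraries for the 12985 genes tested (log scales, 0.1 CPM added), with 2008 genes called higher in LE and 1724 called higher in GE in colour and some named genes circled. TRPV6, S100A9, PTGS2, STEAP2 and MUC4 lie far on the LE side, and SYT13, RFX6, HYDIN and ACP5 far on the GE side.

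The transcription factors FOXA2, RFX6 and BHLHA15 were far higher in GE than in LE. FOXA2, which is needed for gland development and function in mice (chromosome 17, 29997397 to 30001704, Sscrofa11.1), reached 98.9, 77.3 and 77.5 CPM in GE and 7.53, 0 and 0 CPM in LE, a log2 ratio of LE over GE of -5.43 ± 0.91, adjusted p = 0.0113; in gilts P39 and P43 LE held no count. RFX6, known from endocrine cells of pancreas and gut, had 623, 673 and 470.0 CPM in GE and 55.8, 4.98 and 0.940 CPM in LE (-5.94 ± 1.03, adjusted p = 0.0123), and BHLHA15, a factor of secretory cells also named MIST1, 135, 176 and 246 CPM in GE and 13.2, 0 and 0 CPM in LE (-5.89 ± 1.23, adjusted p = 0.0198). All 3 factors kept the LE and GE libraries apart in each gilt, with the highest LE level in gilt P139. The homeobox genes MSX1 and MSX2, known for uterine receptivity, were higher in GE too, at log2 ratios of -1.90 ± 0.37 and -2.90 ± 0.42. Of 32 tested factors on the list of uterine epithelial transcription factors, 4 were higher in GE (FOXA2, MSX1, MSX2 and GATA2) and 14 in LE, 6 of the latter with a higher level in LE than in BV and S, 56.2% in all against 28.7% of all genes; the list's median log2 ratio was 0.64 against -0.000443 over all genes tested. ELF3, an epithelial ETS factor, had 58.9, 27.4 and 35.4 CPM in LE and 11.7, 7.43 and 10.3 CPM in GE (2.01 ± 0.23, adjusted p = 0.00432) and only 1.69 CPM in BV and 2.35 CPM in S, whereas HOXD9, at 3.89, 11.5 and 15.4 CPM in LE and 1.65, 1.38 and 1.56 CPM in GE, was highest outside the epithelium with 20.9 CPM in BV and 24.4 CPM in S. SOX17, a factor of uterine epithelium, was at 138, 127 and 155 CPM in LE and 176, 176 and 166 CPM in GE and was not called (-0.31 ± 0.16, adjusted p = 0.218). Without gilt P39, BHLHA15 (adjusted p = 0.0506) and HOXD9 (adjusted p = 0.0973) were not called. Without gilt P43, RFX6, BHLHA15, FOXA2, MSX2, MSX1 and HOXD9 were not called, with adjusted p between 0.0519 and 0.15.

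Genes of motile cilia formed the most lopsided of the 24 gene lists examined. Of 72 tested members 69 were higher in GE and 1 in LE, with a median log2 ratio of -3.21; 36 of the 72 were detectable only in GE, and of the 36 detectable in both compartments 34 were higher in GE, with a median of -2.51, where 25.4% of all genes were called in either direction. The summed level of the list was 1199, 794 and 637 CPM in LE and 6384, 4667 and 2674 CPM in GE, so LE held 18.8%, 17.0% and 23.8% of the GE level. FOXJ1, the master regulator of motile ciliogenesis, had 112, 57.2 and 24.4 CPM in GE and 10.6, 0.622 and 0 CPM in LE (-4.58 ± 0.67, adjusted p = 0.00781). HYDIN, a protein of the central pair, had 809, 489 and 206 CPM in GE and 78.4, 2.49 and 2.82 CPM in LE (-5.35 ± 0.85, adjusted p = 0.00962), and the axonemal dynein heavy chain DNAH9 323, 142 and 91.2 CPM in GE and 33.2, 8.40 and 5.33 CPM in LE (-3.76 ± 0.25, adjusted p = 0.00156). All 3 genes were lower in each LE library than in any GE library. DNAH7, another dynein heavy chain, differed by -2.94 ± 0.19, adjusted p = 0.00156, CFAP43 of the axoneme by -3.36 ± 0.25, adjusted p = 0.00197 and TUBB4B, a tubulin of axonemes, by -2.27 ± 0.16, adjusted p = 0.00194. TEKT2, a tektin of the outer doublets, had 3 counts in LE and 132 in GE, a GE to LE ratio of 38.6 (95% interval 12.9 to 189.6) for counting error only. In GE the level was highest in gilt P139 and lowest in gilt P43 with gilt P39 between them for 56 of the 72 genes, an order held by 19.2% of all genes tested. The summed level of the list in LE was also highest in gilt P139, at 1199 CPM. The member higher in LE was PROM1, at 9.34, 26.1 and 13.2 CPM in LE and 4.94, 9.08 and 2.50 CPM in GE (1.54 ± 0.35, adjusted p = 0.0263). It encodes prominin-1 of membrane protrusions, was at 39.98 CPM in BV and 36.6 CPM in S, and was not called without the gilt block. In cyclic gilts 70 of the 72 were higher in GE and 1 in LE, with a median of -2.76, and without gilt C128 68 and 0 were (edgeR). Among all 12985 genes tested, 2278 were called higher in GE and 2654 in LE of the 4 cyclic gilts. Without gilt P39, PROM1 (adjusted p = 0.121) was not called. Without gilt P43, HYDIN (adjusted p = 0.0689) and PROM1 (adjusted p = 0.115) were not called.

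The promoters of the cilia genes were read from RefSeq's Sscrofa11.1 because RFX factors, which bind the hexamer GTTGCC as part of a longer site, are known to control many of them. Windows of 250 bases before the annotated gene start were searched on both strands for GTTGCC outside repeats masked in the genome, a search chosen after the values had been seen. The hexamer was found in 18 of 71 windows of the list (25.4%), in 1127 of 12752 windows of all tested genes (8.84%), in 152 of 1632 windows of other genes higher in GE (9.31%) and in 160 of 1981 windows of genes higher in LE (8.08%). A longer pattern, GTTGCCATG, was found in 4 of 71 windows of the list (5.63%) and 68 of 12752 of all windows (0.533%). The pattern TGTTTAC, searched as a motif of FOXA2, was found in 4 of 71 windows of the list (5.63%) and 251 of 12752 of all windows (1.97%). Which factor could bind it was not tested. It was in 2.33% of windows of other genes higher in GE and 2.17% of those of genes higher in LE. A match is a description and not a bound site. The windows of CFAP43 (chr14:115201966-115202215), SPAG6 (chr10:52571978-52572227) and ZMYND10 (chr13:32830038-32830287) are shown as examples, all on the minus strand and written 5′ to 3′ towards the gene, with GTTGCC or its complement GGCAAC in capitals. SPAG6, a protein of the central apparatus, had 27.8, 33.6 and 15.6 CPM in GE and 2.60, 0 and 0 CPM in LE, and ZMYND10, which assembles dynein arms, 80.0, 63.9 and 21.6 CPM in GE and 10.4, 0 and 1.88 CPM in LE; these genes were chosen after their values were seen.
CFAP43: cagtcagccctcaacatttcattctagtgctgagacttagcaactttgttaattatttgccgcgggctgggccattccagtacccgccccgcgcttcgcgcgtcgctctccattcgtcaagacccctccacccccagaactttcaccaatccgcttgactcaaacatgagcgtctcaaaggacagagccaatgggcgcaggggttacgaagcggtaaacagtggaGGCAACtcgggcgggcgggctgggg
SPAG6: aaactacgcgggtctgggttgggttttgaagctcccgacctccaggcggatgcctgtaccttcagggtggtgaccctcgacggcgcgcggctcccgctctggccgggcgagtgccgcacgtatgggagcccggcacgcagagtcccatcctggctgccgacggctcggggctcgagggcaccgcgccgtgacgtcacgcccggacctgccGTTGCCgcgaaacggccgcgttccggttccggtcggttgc
ZMYND10: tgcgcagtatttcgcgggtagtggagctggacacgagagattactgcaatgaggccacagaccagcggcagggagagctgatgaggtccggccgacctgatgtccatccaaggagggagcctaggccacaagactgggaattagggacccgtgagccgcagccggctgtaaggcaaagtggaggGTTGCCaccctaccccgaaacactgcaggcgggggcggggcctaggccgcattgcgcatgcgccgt

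The capitals begin 25 bases before the start of CFAP43, 40 before that of SPAG6 and 66 before that of ZMYND10, counted from the first base of the match on the gene's strand.

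Secretory genes split between the compartments, and uteroferrin was glandular. ACP5 encodes uteroferrin, the purple acid phosphatase that carries iron to the pig conceptus, and had 7013, 4694 and 6217 CPM in GE and 774, 199.9 and 270.4 CPM in LE (-4.09 ± 0.38, adjusted p = 0.0029); the LE level in gilt P139 was the highest of the 3. SYT13, a member of the synaptotagmin family of vesicle proteins (chromosome 2, 17120127 to 17166997), had 3245, 6361 and 10014 CPM in GE and 307, 2.18 and 31.02 CPM in LE (-7.71 ± 1.82, adjusted p = 0.0285), with LE spread over a wide range between gilts. TIMP2, an inhibitor of matrix metalloproteinases, was higher in GE by a smaller margin (3307, 2171 and 3623 CPM in GE and 1632, 881 and 1227 CPM in LE; -1.29 ± 0.21, adjusted p = 0.0101). The cysteine protease CTSC was higher in LE, at 425, 511 and 381 CPM in LE and 37.4, 47.9 and 80.0 CPM in GE (3.06 ± 0.31, adjusted p = 0.00351). On the list of glandular secretions 10 of 26 tested genes were higher in LE (5 of them above BV and S) and 5 in GE (ACP5, TIMP1, TIMP2, FTH1 and FTL), 57.7% in all against 28.7% of all genes, with a median log2 ratio of 0.49; its summed level in LE was 76.0%, 62.5% and 63.9% of that in GE. Of 45 lysosomal enzymes 15 were higher in LE and 4 in GE, 42.2% in all against 28.7% of all genes, and 7 of the former were above BV and S, among them the β-galactosidase GLB1 with 241, 268 and 202 CPM in LE and 22.4, 38.5 and 17.2 CPM in GE (3.25 ± 0.22, adjusted p = 0.00164). Most of the secretory pathway did not pass the test: 8 of 59 genes were higher in LE and 4 in GE, 20.3% against 28.7% of all genes. AGR2, a disulfide isomerase of mucin-producing cells, reached 166, 135 and 168 CPM in LE and 6.38, 3.30 and 4.06 CPM in GE (5.09 ± 0.24, adjusted p = 0.000943), and SEC11C of the signal peptidase 78.4, 74.3 and 68.6 CPM in LE and 21.8, 21.2 and 30.6 CPM in GE (1.61 ± 0.21, adjusted p = 0.00612). CREB3L1, a factor that drives secretory genes, was higher in GE (49.4, 187 and 77.5 CPM in GE and 15.1, 11.2 and 7.83 CPM in LE; -3.005 ± 0.48, adjusted p = 0.00955), as was the disulfide isomerase PDIA5 (-1.96 ± 0.34, adjusted p = 0.0126). Without gilt P39, SYT13 (adjusted p = 0.0571), TIMP2 (adjusted p = 0.0541) and TIMP3 (adjusted p = 0.0625) were not called. Without gilt P43, SYT13, CREB3L1, PDIA5, TIMP2 and TIMP3 were not called, with adjusted p between 0.0692 and 0.163.

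Calcium entry channels were among the largest differences of LE. TRPV6, an epithelial calcium channel of the apical membrane (chromosome 18, 7332253 to 7348383), had 1383, 1332 and 1522 CPM in LE and 2.88, 0.275 and 0.937 CPM in GE, a log2 ratio of 9.97 ± 0.57, adjusted p = 0.00123. TRPV5, its close relative (chromosome 18, 7285186 to 7341965), had 262, 291 and 353 CPM in LE and 0.411, 0.826 and 1.25 CPM in GE (8.52 ± 0.29, adjusted p = 0.000909). Both were above every GE library in every LE library. The genes overlap on the same strand, so reads of the shared stretch cannot be told apart, and the pair is not independent. S100G, the calcium-binding protein calbindin-D9k, had 148 counts in LE and 3 in GE, a ratio of 56.2 (95% interval 18.9 to 276); S100G is also on the list of conceptus markers. On the list of calcium transport 8 of 15 genes were higher in LE, 5 of them above BV and S, and 3 in GE, 73.3% in all against 28.7% of all genes. The split was 1 in LE and 2 in GE among the 6 detectable in both compartments, where the median log2 ratio was -0.54 against 1.83 over all 15. The calcium pump ATP2C2 of the secretory pathway was higher in GE, at 14.6, 15.4 and 4.9998 CPM in GE and 0.779, 0.311 and 0.627 CPM in LE (-4.21 ± 0.56, adjusted p = 0.00595). Channels and exchangers of ions and water divided 14 in LE to 9 in GE of 37, 62.2% in all against 28.7% of all genes, and 6 in LE and 7 in GE among the 24 detectable in both compartments. SLC26A4, the anion exchanger pendrin, had 544 counts in LE and 1 in GE, a ratio of 620.1 (95% interval 111 to 24538), and the potassium channel KCNJ15 had 22.3, 16.5 and 29.1 CPM in LE and 0, 0.550 and 1.56 CPM in GE (5.16 ± 0.64, adjusted p = 0.00519). Higher in GE were the water and glycerol channel AQP3 (7.81, 70.7 and 45.9 CPM in GE and 1.04, 1.24 and 0 CPM in LE; -5.44 ± 0.79, adjusted p = 0.00752), the potassium channel KCNQ1 (53.1, 42.4 and 62.2 CPM in GE and 4.93, 0.933 and 1.25 CPM in LE; -4.52 ± 0.48, adjusted p = 0.00377) and CFTR, the chloride and bicarbonate channel (83.9, 49.0 and 48.7 CPM in GE and 15.8, 18.7 and 9.40 CPM in LE; -2.05 ± 0.27, adjusted p = 0.00608). AQP3 was the only one of these whose GE level was much lower in gilt P139 than in the other gilts. MUC4, a membrane-bound mucin, had 964, 732 and 539 CPM in LE and 2.47, 6.88 and 1.87 CPM in GE (7.72 ± 0.45, adjusted p = 0.00123), with no overlap and 0.418 CPM in BV and 34.5 CPM in S; MUC1, the main transmembrane mucin, had 466, 372 and 374 CPM in LE and 110.0, 397 and 226 CPM in GE and was not called (0.90 ± 0.42, adjusted p = 0.17). Of 26 genes of mucins and their glycosylation 12 were higher in LE (9 above BV and S) and 6 in GE, 69.2% in all against 28.7% of all genes, and 5 in LE and 4 in GE among the 16 detectable in both compartments. GCNT1, which starts branches of O-linked glycans, was higher in LE (5.01 ± 0.24, adjusted p = 0.000943), and the sialyltransferase ST6GAL1 in GE (-2.48 ± 0.44, adjusted p = 0.0134). Without gilt P43, ST6GAL1 (adjusted p = 0.0914) was not called.

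**Figure D3:**
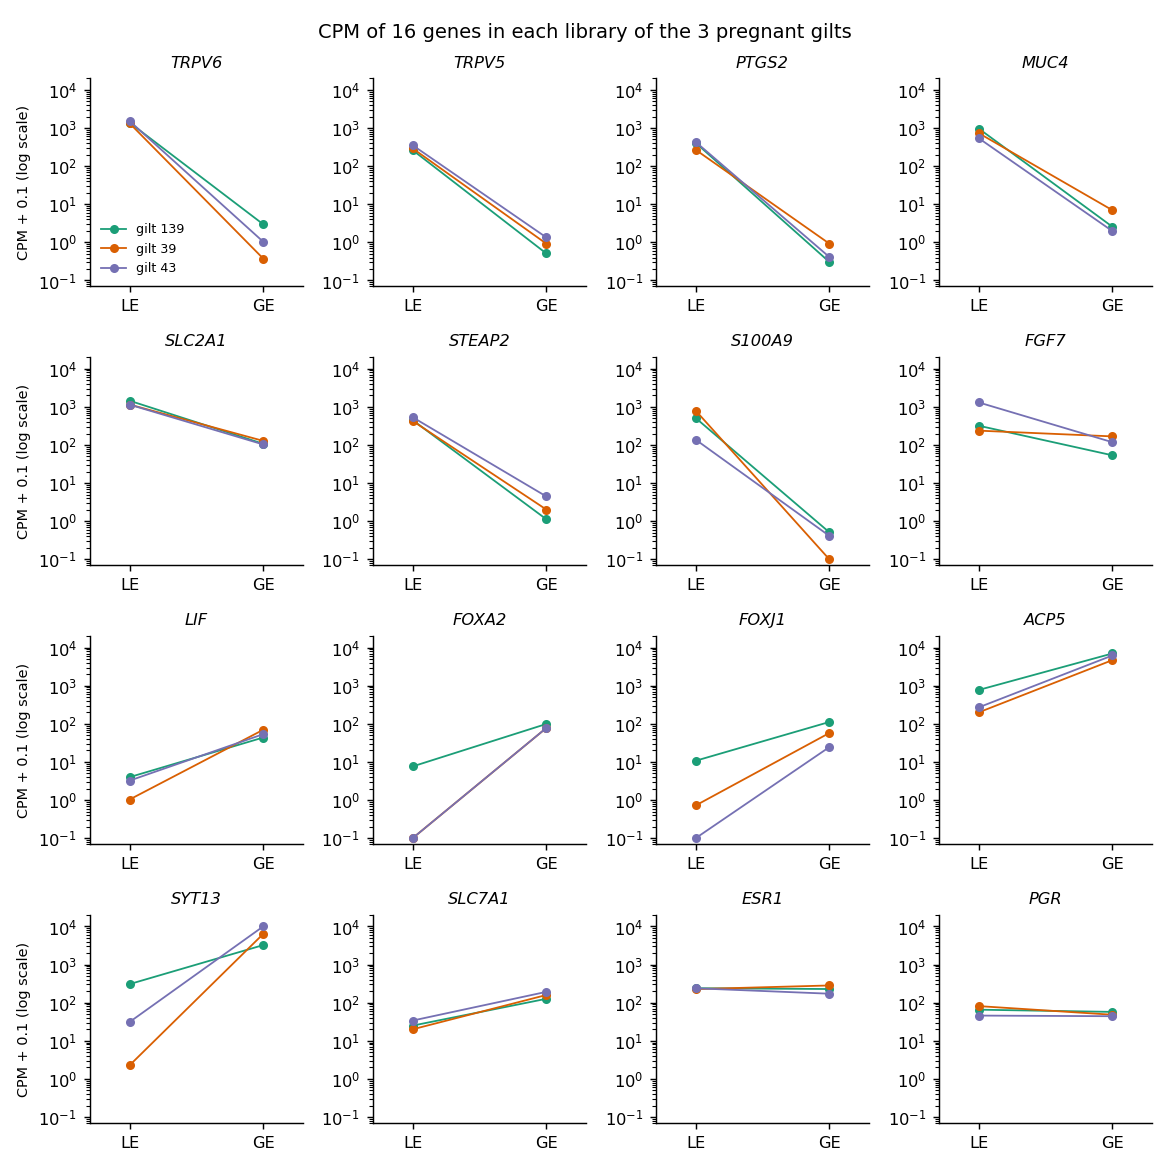
CPM (log scale, 0.1 added) of 16 genes in LE and GE, with 1 line per pregnant gilt. TRPV6, TRPV5, PTGS2, MUC4, SLC2A1, STEAP2 and S100A9 are higher in LE in all 3 gilts, LIF, FOXA2, FOXJ1, ACP5, SYT13 and SLC7A1 are higher in GE, and ESR1 and PGR lie at like levels.

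The prostaglandin genes PTGS2, ABCC4 and AKR1B1 were luminal, and the reductase CBR2 and the receptor PTGER2 were glandular. PTGS2, the inducible cyclooxygenase, had 407, 267 and 429.9 CPM in LE and 0.206, 0.826 and 0.312 CPM in GE (9.61 ± 0.43, adjusted p = 0.000943), that is 5 counts in GE in all. ABCC4, which exports prostaglandins, had 321, 307 and 483 CPM in LE and 4.73, 1.93 and 2.81 CPM in GE (6.82 ± 0.35, adjusted p = 0.000957), and AKR1B1, a reductase known as a prostaglandin F synthase, 132, 235 and 35.4 CPM in LE and 13.2, 4.68 and 10.6 CPM in GE (3.51 ± 0.72, adjusted p = 0.019). CBR2, a carbonyl reductase, was higher in GE (139.2, 77.3 and 71.2 CPM in GE and 18.4, 0.311 and 0.313 CPM in LE; -4.69 ± 0.85, adjusted p = 0.0138), as was the prostaglandin E receptor PTGER2 (815, 588 and 1179 CPM in GE and 352, 141 and 297 CPM in LE; -1.75 ± 0.24, adjusted p = 0.00619). In all 7 of 17 genes of the list were higher in LE (6 above BV and S) and 3 in GE, 58.8% in all against 28.7% of all genes, and 4 in LE and 2 in GE among the 12 detectable in both compartments, where the median log2 ratio was 0.00. HPGD, which breaks prostaglandins down, had 38.7, 121 and 166 CPM in LE and 74.7, 60.3 and 42.5 CPM in GE and was not called (0.70 ± 0.56, adjusted p = 0.394). With gilt P139 left out, HPGD was called higher in LE (1.48, adjusted p = 0.0151). Estrogen receptor ESR1 had 239.6, 227 and 238 CPM in LE and 228, 283 and 172 CPM in GE (0.07 ± 0.20, adjusted p = 0.81) and progesterone receptor PGR 65.4, 81.2 and 45.7 CPM in LE and 57.2, 48.2 and 44.1 CPM in GE (0.34 ± 0.20, adjusted p = 0.27); neither was called, and the libraries overlapped for both. The second estrogen receptor, ESR2, was higher in LE, at 15.3, 16.2 and 6.58 CPM in LE and 1.85, 0 and 0.312 CPM in GE (4.10 ± 0.75, adjusted p = 0.0139). LE of gilt P41, which was left out of this fit, held 1.68 CPM of ESR2. Among steroid and nuclear receptors 5 of 30 were higher in LE and 7 in GE, against 15.5% and 13.3% of all genes, with RARG of retinoic acid on the LE side (2.62 ± 0.34, adjusted p = 0.00559). CYP26A1, which degrades retinoic acid, had 4.15, 1.87 and 25.1 CPM in LE and no count in GE, at least 38.8-fold higher in LE against 3 counts over the GE group, whereas ALDH1A1, which makes it, was higher in GE (235, 485 and 564 CPM in GE and 83.3, 27.4 and 49.8 CPM in LE; -3.05 ± 0.55, adjusted p = 0.0135). Of 17 retinoid genes 3 were higher in LE and 2 in GE, 29.4% in all, near the 28.7% of all genes. SRD5A1, a steroid alpha-reductase, had 120.4, 276 and 275 CPM in LE and 1.65, 6.05 and 4.9998 CPM in GE (5.77 ± 0.23, adjusted p = 0.000943), and SULT2A1, a sulfotransferase of steroids, 309, 735 and 871 CPM in GE and 49.1, 5.91 and 23.5 CPM in LE (-4.83 ± 0.87, adjusted p = 0.0134). The list of cytochromes, conjugation and steroid-converting enzymes divided evenly, 6 in LE and 6 in GE of 36, 33.3% in all against 28.7% of all genes, and 3 in LE and 6 in GE among the 29 detectable in both compartments. Lipid genes divided too, with 15 of 67 higher in LE and 13 in GE, 41.8% in all against 28.7% of all genes, among the latter the sterol exporter ABCG1 with 172, 146 and 278 CPM in GE and 39.7, 18.7 and 22.6 CPM in LE (-2.89 ± 0.32, adjusted p = 0.00426). Without gilt P43, SULT2A1, CBR2, ALDH1A1, PTGER2, ESR2 and CYP26A1 were not called, with adjusted p between 0.0542 and 0.131.

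More adhesion genes were higher in LE than in GE. On the list of adhesion molecules and integrins 19 of 34 were higher in LE and 3 in GE, 64.7% in all against 28.7% of all genes, and 15 in LE and 2 in GE among the 27 detectable in both compartments, but 8 of the 19 had a higher level in LE than in BV and S. ITGB3, the integrin subunit β3, had 80.5, 38.9 and 53.3 CPM in LE and 1.03, 0 and 0.312 CPM in GE (6.87 ± 0.46, adjusted p = 0.00158), with 17.1 CPM in BV and 11.2 CPM in S, and CDH16, a kidney-type cadherin, 213, 123 and 213 CPM in LE and 0.206, 0.275 and 0.937 CPM in GE (8.63 ± 0.37, adjusted p = 0.000943), with 0.287 CPM in BV and 11.4 CPM in S. SPP1, the integrin ligand osteopontin, had 26.2, 15.5 and 77.1 CPM in LE and 5.96, 8.26 and 9.69 CPM in GE (2.05 ± 0.42, adjusted p = 0.0192), with 29.1 CPM in BV and 46.3 CPM in S. For ITGB3 and CDH16 LE exceeded both stromal captures; for SPP1 it did not exceed S in the mean. CDH6, a cadherin, was higher in GE (56.1, 58.9 and 33.1 CPM in GE and 7.27, 0 and 1.57 CPM in LE; -4.26 ± 0.77, adjusted p = 0.0135), and so was ICAM1, a ligand of leukocyte integrins (-2.12 ± 0.39, adjusted p = 0.0145). Junctions and keratins gave 12 genes higher in LE and 4 in GE of 34, 47.1% in all against 28.7% of all genes. The nectin NECTIN4 (68.8, 40.4 and 58.6 CPM in LE and 4.52, 1.93 and 2.50 CPM in GE; 4.23 ± 0.25, adjusted p = 0.00127) and keratin KRT7 (12.98, 19.6 and 31.6 CPM in LE and 0.411, 1.65 and 13.1 CPM in GE; 2.71 ± 0.65, adjusted p = 0.0299) were luminal. Claudin CLDN10 (24.5, 34.4 and 14.1 CPM in GE and 3.11, 0.622 and 0.940 CPM in LE; -3.91 ± 0.52, adjusted p = 0.00608) and keratin KRT19 (73.2, 105 and 134 CPM in GE and 27.5, 23.0 and 17.9 CPM in LE; -2.16 ± 0.31, adjusted p = 0.00752) were glandular. Of 17 epithelial markers 6 were higher in LE and 1, KRT19, in GE, 41.2% in all against 28.7% of all genes. Of 39 proteases, serpins and matrix enzymes 19 were higher in LE, 11 of them above BV and S, and 2 in GE, 53.8% in all against 28.7% of all genes, and 9 in LE and 2 in GE among the 25 detectable in both compartments. The serine protease inhibitor SERPINB7 had 631, 417 and 423 CPM in LE and 0.617, 0.550 and 0.312 CPM in GE (9.86 ± 0.28, adjusted p = 0.000778), and SERPINB11 had 25.4, 20.2 and 11.6 CPM in LE and no count in GE, at least 76.0-fold higher against 3 counts over the group. The membrane-bound metalloproteinase MMP15 was higher in GE (54.1, 45.7 and 14.1 CPM in GE and 8.56, 8.08 and 4.07 CPM in LE; -2.36 ± 0.27, adjusted p = 0.00427). KRT7 was not called without the gilt block. Without gilt P39, KRT7 (adjusted p = 0.103) was not called. Without gilt P43, CDH6 (adjusted p = 0.0832), ICAM1 (adjusted p = 0.0596) and SPP1 (adjusted p = 0.106) were not called.

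Glucose and amino acid carriers were divided by family member. SLC2A1, the glucose transporter GLUT1, had 1449.5, 1151 and 1143 CPM in LE and 107, 127.98 and 103 CPM in GE (3.46 ± 0.21, adjusted p = 0.0013), and SLC5A1, a sodium-glucose cotransporter, had 51.4, 70.9 and 105 CPM in LE and 1.03, 19.3 and 127 CPM in GE and was not called (1.86 ± 0.98, adjusted p = 0.208). SLC2A1 varied little between gilts, while SLC5A1 in GE was near 0 in gilt P139 and above LE in gilt P43. SLC7A9, which carries cystine and basic amino acids, had 523 counts in LE and 3 in GE, a ratio of 199 (95% interval 67.6 to 967), and the peptide transporter SLC15A1 had 280 and 3 counts, a ratio of 106 (95% interval 36.0 to 519). The related peptide transporter SLC15A2 was glandular (102.4, 162 and 139.1 CPM in GE and 16.9, 0.311 and 2.51 CPM in LE; -4.76 ± 0.95, adjusted p = 0.0174), as were SLC6A20, a proline carrier (279, 659 and 687 CPM in GE and 60.2, 22.1 and 46.4 CPM in LE; -3.65 ± 0.55, adjusted p = 0.0082), and SLC7A1, a carrier of arginine and lysine (126, 159 and 192 CPM in GE and 24.9, 19.9 and 33.8 CPM in LE; -2.61 ± 0.20, adjusted p = 0.00219). In all 10 of 32 were higher in LE, 7 of them above BV and S, and 10 in GE, 7 of them above BV and S, 62.5% in all against 28.7% of all genes, and 6 in LE and 10 in GE among the 24 detectable in both compartments. Without gilt P43, SLC15A2 (adjusted p = 0.108) and SLC6A20 (adjusted p = 0.0641) were not called.

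Several genes of antigen presentation were higher in LE. None of the list was called higher in GE by edgeR (1 at an unadjusted p under 0.05) or by DESeq2. Of 59 tested genes on the list of interferon-stimulated genes and antigen presentation 15 were higher in LE, 25.4% against 15.5% of all genes called in this direction, and 5 of the 15 were above BV and S. The summed level of the list in LE was 155%, 286% and 196% of that in GE. SLA-2, a classical class I antigen of the pig, had 3252, 929.8 and 1388 CPM in LE and 353, 53.4 and 133 CPM in GE (3.56 ± 0.26, adjusted p = 0.00195), and SLA-5, of the same gene family, 15.6, 56.9 and 21.9 CPM in LE and 0.411, 3.03 and 1.25 CPM in GE (4.38 ± 0.32, adjusted p = 0.00195). SLA-5 was also at 65.9, 31.9 and 7.91 CPM in S and at 3.44, 37.8 and 4.45 CPM in BV. SLA genes are close copies of each other, so their counts are uncertain where reads fit several of them. The other members higher in LE were SLA-1, SLA-3, SLA-7, SLA-8, SLA-DRB1, RSAD2, IFITM1, MX1, MX2, BST2, DDX58, IFNGR2 and IFNAR2. IRF1, an interferon-induced factor, had 90.8, 23.0 and 22.9 CPM in LE and 184, 14.6 and 30.9 CPM in GE and was not called (-0.32 ± 0.34, adjusted p = 0.513). Gilt P139 was high in LE and in GE, and S, at 171 CPM, exceeded the mean of LE. The alarmins S100A9 and S100A12 were luminal: S100A9, a subunit of calprotectin (chromosome 4, 96236114 to 96238989), had 509, 795 and 138 CPM in LE and 0.411, 0 and 0.312 CPM in GE, a ratio of 1883 (95% interval 644 to 9135) on 3 counts in GE, and S100A12 had 50.9, 23.6 and 19.1 CPM in LE and no count in GE, at least 127-fold higher. Of 27 antimicrobial proteins and alarmins 9 were higher in LE (8 above BV and S) and 2 in GE, 40.7% in all against 28.7% of all genes, and 4 in LE and 2 in GE among the 19 detectable in both compartments, with a median log2 ratio of 0.12. Chemokines and interleukins gave 10 genes higher in LE and 4 in GE of 32, 43.8% in all against 28.7% of all genes. CXCL16, a membrane-bound chemokine, had 157, 133 and 168 CPM in LE and 6.99, 7.98 and 6.25 CPM in GE (4.42 ± 0.22, adjusted p = 0.000943), and IL1R1, the receptor of IL-1, 225, 292 and 278 CPM in LE and 45.9, 13.5 and 19.999 CPM in GE (3.47 ± 0.45, adjusted p = 0.00559), with 297 CPM in BV and 200.1 CPM in S. The mucosal chemokine CCL28 had 91.7, 21.7 and 16.9 CPM in GE and 6.49, 0.311 and 0 CPM in LE (-4.58 ± 0.56, adjusted p = 0.00498), and IL17RB, a receptor subunit for IL-25, 18.1, 32.8 and 27.2 CPM in GE and 1.56, 1.87 and 6.58 CPM in LE (-3.08 ± 0.45, adjusted p = 0.00781). Of 19 complement genes 2 were higher in LE and 1 in GE, 15.8% in all against 28.7% of all genes, and CFD, complement factor D, led with 296, 275 and 493 CPM in LE and 39.5, 41.6 and 21.9 CPM in GE (3.34 ± 0.40, adjusted p = 0.00472).

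Ligands of growth factor and Wnt pathways were found on both sides. LIF, leukemia inhibitory factor, an implantation cytokine of mice, had 43.6, 69.6 and 53.4 CPM in GE and 3.89, 0.933 and 3.13 CPM in LE (-4.34 ± 0.48, adjusted p = 0.00419). IHH, the Indian hedgehog ligand, had 2 counts in LE and 145 in GE, a GE to LE ratio of 63.6 (95% interval 17.3 to 530.2), in all 3 gilts. FGF7, keratinocyte growth factor, which pig LE is known to secrete, had 319.7, 238 and 1306 CPM in LE and 53.5, 168 and 118 CPM in GE (2.21 ± 0.60, adjusted p = 0.0417), and its receptor gene FGFR2 111, 45.1 and 45.7 CPM in LE and 89.9, 127.98 and 94.4 CPM in GE and was not called (-0.74 ± 0.37, adjusted p = 0.188). LE of gilt P43 held far more FGF7 than LE of the other gilts. VEGFA, the vascular growth factor, had 170.3, 116 and 191 CPM in LE and 10.3, 18.7 and 10.3 CPM in GE (3.61 ± 0.36, adjusted p = 0.00352), and MST1R, a receptor tyrosine kinase, 124, 91.1 and 119.7 CPM in LE and 10.1, 4.95 and 5.31 CPM in GE (4.06 ± 0.25, adjusted p = 0.0013). Of 59 growth factors and receptors 17 were higher in LE, 9 of them above BV and S, and 13 in GE, 50.8% in all against 28.7% of all genes. WNT7A, an epithelial Wnt ligand, had 7.53, 5.60 and 7.83 CPM in LE and no count in GE, at least 27.4-fold higher in LE. NOTUM, an enzyme that inactivates Wnt ligands (15.8, 9.36 and 6.87 CPM in GE and 1.04, 0.311 and 0.627 CPM in LE; -3.95 ± 0.48, adjusted p = 0.0049), and RNF43, a ligase that removes Wnt receptors (-2.42 ± 0.49, adjusted p = 0.0178), were glandular; both are known as targets of the pathway. Of 29 Wnt genes 7 were higher in LE and 9 in GE, 55.2% in all against 28.7% of all genes, and 1 of the former was above BV and S. LGR5, a receptor of R-spondins, had 9 counts in LE and 1 in GE and was not called (LE to GE ratio 10.3 (95% interval 1.42 to 449.7)). Among cell cycle genes 6 of 37 were higher in LE and 4 in GE, 27.0% against 28.7% of all genes. The kinase inhibitor CDKN2B was luminal (36.9, 57.5 and 59.5 CPM in LE and 4.52, 0.550 and 1.25 CPM in GE; 4.55 ± 0.64, adjusted p = 0.00707), and cyclin CCND1 (65.2, 89.2 and 123 CPM in GE and 18.2, 23.9 and 31.02 CPM in LE; -1.91 ± 0.17, adjusted p = 0.00271) and STMN1, a microtubule regulator (-2.23 ± 0.22, adjusted p = 0.00328), were glandular. Without gilt P139, FGF7 (adjusted p = 0.0961) was not called and FGFR2 was called higher in GE (-1.28, adjusted p = 0.0114). Without gilt P43, RNF43, FGF7, CDKN2B and WNT7A were not called, with adjusted p between 0.0552 and 0.168.

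**Figure D4:**
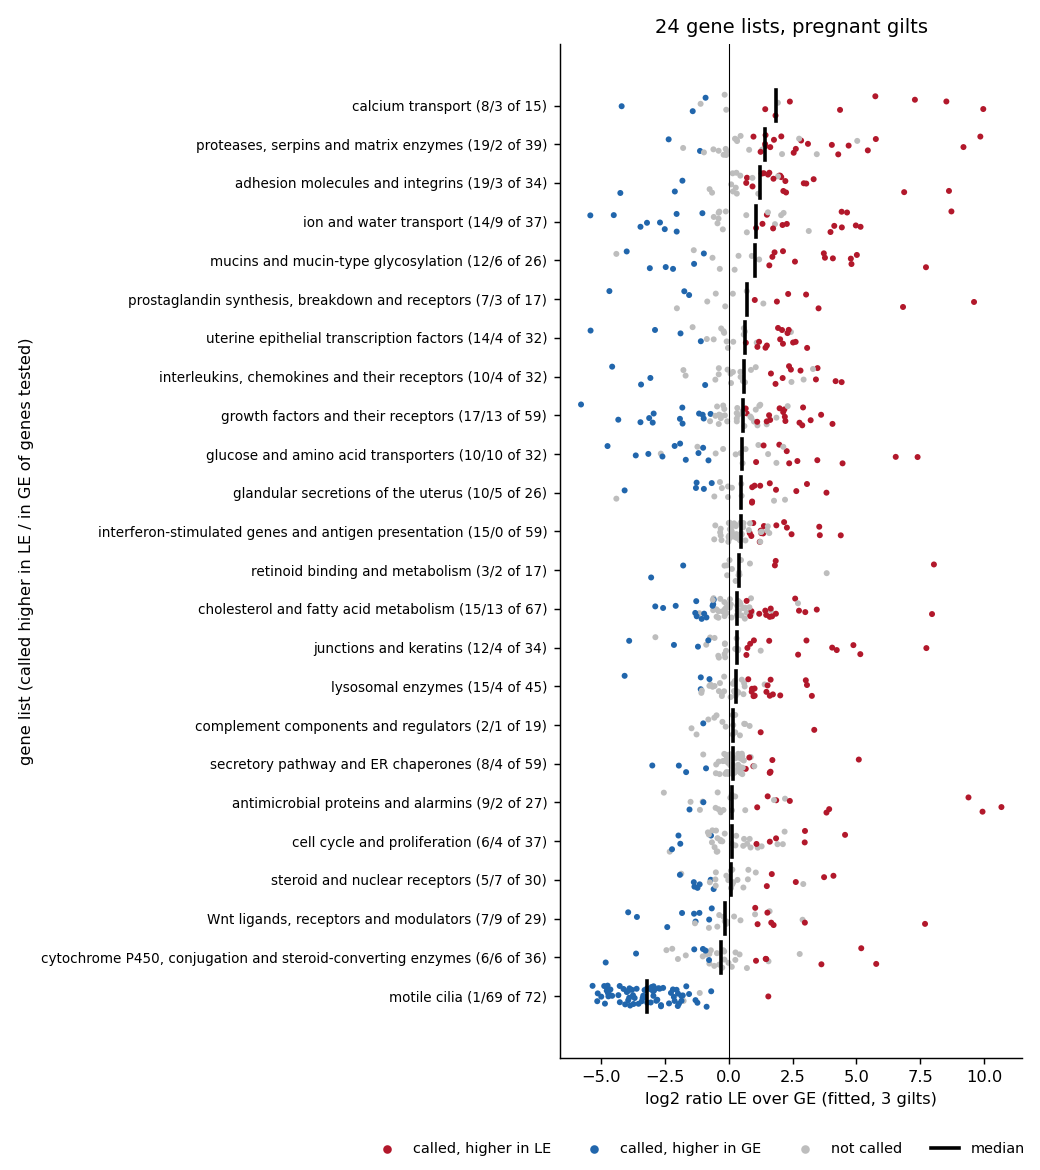
Fitted log2 ratio LE over GE of each tested gene in 24 gene lists, coloured by call, with a bar at the list's median. Motile cilia genes lie on the GE side (69 of 72 called there), and calcium transport, proteases and adhesion molecules have medians of 1.83, 1.43 and 1.22, or -0.543, 0.319 and 0.919 over the members detectable in both compartments.

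The genes with the smallest p-values or the largest ratios also held members of no list. EMB, embigin, a chaperone of lactate transporters (chromosome 16, 30121072 to 30170495), had 2473, 4477 and 1713 CPM in LE and 93.2, 187 and 86.9 CPM in GE (4.54 ± 0.22, adjusted p = 0.000943). RAB27B, a small GTPase of vesicle secretion, had 411, 480.4 and 401 CPM in LE and 10.3, 15.1 and 11.2 CPM in GE (5.15 ± 0.20, adjusted p = 0.000909), TCTN3 of the transition zone of primary cilia 972, 959.9 and 518 CPM in LE and 35.2, 42.9 and 23.4 CPM in GE (4.58 ± 0.20, adjusted p = 0.000943) and TRPM6, a magnesium channel, 205, 188 and 151 CPM in LE and 15.6, 14.6 and 13.4 CPM in GE (3.63 ± 0.18, adjusted p = 0.000943). STEAP2, a metalloreductase of iron and copper, had 448, 428 and 534 CPM in LE and 1.03, 1.93 and 4.37 CPM in GE (7.70 ± 0.39, adjusted p = 0.000943). Every LE library exceeded every GE library for these 5 genes, and their highest mean in BV or S was 225 CPM, of EMB in S. CA3, a carbonic anhydrase, had 28.03, 32.7 and 54.5 CPM in LE and no count in GE, at least 147-fold higher, and the lncRNA LOC110262175 30.1, 35.4 and 51.4 CPM and no count, at least 149.7-fold higher. On the GE side the lncRNA LOC100626264 had 800.4, 2042 and 4435 CPM in GE and 92.7, 0 and 0.313 CPM in LE (-8.81 ± 2.46, adjusted p = 0.0457), ADAMTS18, a secreted metalloprotease, 148, 169 and 424 CPM in GE and 10.9, 0 and 0.313 CPM in LE (-6.27 ± 1.17, adjusted p = 0.0146) and NPTX1, a secreted pentraxin, 56.8, 4.40 and 639 CPM in GE and 3.37, 0 and 0.627 CPM in LE (-6.52 ± 1.14, adjusted p = 0.0125). NPTX1 in GE ranged widely between gilts and was lowest in gilt P39; LOC100626264 also reached 740.2, 211 and 419 CPM in BV. SLCO3A1, an organic anion transporter (-3.13 ± 0.23, adjusted p = 0.00195), and CBFB, a partner of RUNX factors (281, 321 and 316 CPM in GE and 65.1, 66.2 and 59.2 CPM in LE; -2.27 ± 0.17, adjusted p = 0.00195), had small p-values on this side. Without gilt P39, LOC100626264 (adjusted p = 0.143) was not called. Without gilt P43, LOC100626264 (adjusted p = 0.183) and ADAMTS18 (adjusted p = 0.0708) were not called. LOC100626264 was also not called when only genes detectable in both compartments were tested.

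Most differences between LE and GE were not shown to depend on pregnancy. The difference LE minus GE was set against that of the 4 cyclic gilts in a fit of 14 libraries, and 191 of 12985 genes were called (1.47%), 112 of them more towards LE in pregnant gilts and 79 more towards GE. Of the 191 genes 134 had been called between LE and GE of pregnant gilts. In the cyclic gilts of the same fit, 1409 of the 2008 genes higher in pregnant LE were also called higher in LE and 24 in GE, and 1198 of the 1724 genes higher in pregnant GE were called higher in GE and 22 in LE. Of these 46 genes with opposite calls 34 were among the 191. Among all 12985 genes tested, 2654 were called higher in cyclic LE and 2278 in cyclic GE. A gene called in pregnant and not in cyclic gilts is not shown to differ between them, and 61 of 1079 such genes were called in the interaction. STEAP2 and EMB changed sides. STEAP2 in cyclic gilts C128, C40, C42 and C78 was at 3.43, 1.10, 1.15 and 2.58 CPM in LE and 7.59, 7.64, 9.22 and 7.83 CPM in GE (interaction 9.69 ± 0.55, adjusted p = 0.000622), and EMB at 10.5, 13.8, 21.4 and 15.7 CPM in LE and 132, 40.9, 56.4 and 51.8 CPM in GE (interaction 6.58 ± 0.54, adjusted p = 0.00681); both were glandular there and luminal in pregnancy. GRIN2A, a subunit of the NMDA receptor, turned the other way, from 34.8, 159, 156 and 98.2 CPM in LE and 3.68, 16.3, 15.4 and 32.5 CPM in GE in cyclic gilts to 19.2, 23.0 and 13.2 CPM in LE and 92.3, 113 and 63.1 CPM in GE in pregnant ones (interaction -5.12 ± 0.45, adjusted p = 0.00806). The calcium channels were luminal in both states, and more so in pregnancy: in cyclic gilts TRPV6 had 54.3, 43.4, 48.8 and 109.7 CPM in LE and 5.06, 3.70, 3.51 and 2.30 CPM in GE (interaction 5.94 ± 0.73, adjusted p = 0.0138) and TRPV5 5.80, 5.05, 6.35 and 5.86 CPM in LE and 2.07, 0.739, 0.219 and 0.922 CPM in GE (interaction 5.96 ± 0.68, adjusted p = 0.0108). SERPINB7, at 0.264, 10.7, 6.06 and 31.6 CPM in LE and 0.230, 0.246, 0.219 and 1.15 CPM in GE in cyclic gilts (interaction 5.30 ± 0.78, adjusted p = 0.0264), was called luminal in cyclic gilts too. SLC2A1 had 77.0, 107, 103 and 99.8 CPM in LE and 18.9, 83.0, 41.3 and 93.1 CPM in GE in cyclic gilts (interaction 2.52 ± 0.46, adjusted p = 0.0419), so its luminal margin was wider in pregnancy, and SLC7A1, at 36.4, 97.8, 100.7 and 71.9 CPM in LE and 30.1, 87.5, 116 and 111 CPM in GE (interaction -2.52 ± 0.28, adjusted p = 0.0108), was glandular in pregnant gilts and without a called difference in cyclic ones. PDIA5 (interaction -2.04 ± 0.36, adjusted p = 0.0398) and B3GALT2, a galactosyltransferase (interaction -3.76 ± 0.73, adjusted p = 0.0481), differed in the same direction. SLA-2 (interaction 2.27 ± 0.40, adjusted p = 0.0398), SLA-5 (interaction 2.71 ± 0.52, adjusted p = 0.0473) and CTSC (interaction 2.07 ± 0.36, adjusted p = 0.0387) had wider luminal margins in pregnant gilts, and so had THY1 (interaction 4.63 ± 0.48, adjusted p = 0.0097). THY1 is on the list of fibroblast markers, but in pregnant gilts its mean was 353 CPM in LE, 92.5 CPM in BV and 65.2 CPM in S. TENM1, a teneurin of cell adhesion (interaction -3.69 ± 0.36, adjusted p = 0.0091), and C10H9orf72 (interaction -3.06 ± 0.28, adjusted p = 0.00877) were luminal in cyclic gilts and not called in pregnant ones in the fit of 6 libraries; in the fit of 14 libraries C10H9orf72 was called higher in LE of pregnant gilts (adjusted p = 0.0368). S100A9 and S100A12 had no count in any cyclic LE or GE library, so a cyclic ratio could not be estimated. LIF was at 0, 5.05, 2.89 and 47.1 CPM in LE and 0, 12.6, 5.49 and 22.6 CPM in GE in cyclic gilts and missed the threshold (interaction -4.13 ± 0.85, adjusted p = 0.0653). The libraries of cyclic gilt C128 stood apart from those of the other cyclic gilts for some genes, which were chosen after their values were seen: ACP5 in cyclic GE had 15.2, 2165.8, 1671 and 2593 CPM, SULT2A1 0.230, 151, 144 and 191 CPM and TIMP2 63.5, 1172, 1639 and 1603 CPM, and FGF7 in cyclic LE 4.48, 905, 747 and 1211 CPM, in each the lowest value in gilt C128, given first. Without gilt C128, 298 genes were called in the interaction, 14 of the 16 genes above that were called remained so and SLA-5 (adjusted p = 0.0806) and B3GALT2 (adjusted p = 0.0512) did not. Among genes higher in pregnant LE 1385 were then called higher in cyclic LE and 20 in cyclic GE, and among those higher in pregnant GE 1261 in cyclic GE and 21 in cyclic LE. The cyclic GE library of gilt C78 had 5.20% ribosomal RNA counts against 12.9% to 14.0% in the other cyclic GE libraries; without this gilt 148 genes were called. The count was 21 without gilt P39, 25 without gilt C42, 50 without gilt C40, 62 without gilt P43 and 76 without gilt P139. With 1 of the 7 gilts left out in turn, all 16 kept their direction, and 7 to 14 were called. STEAP2, EMB, GRIN2A, TRPV5, THY1, TENM1 and C10H9orf72 were called each time, SLC7A1 in 6 and TRPV6 in 5 of the 7 fits, CTSC and PDIA5 in 2, SERPINB7, SLC2A1, SLA-2 and B3GALT2 in 1 and SLA-5 in none.

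**Figure D5:**
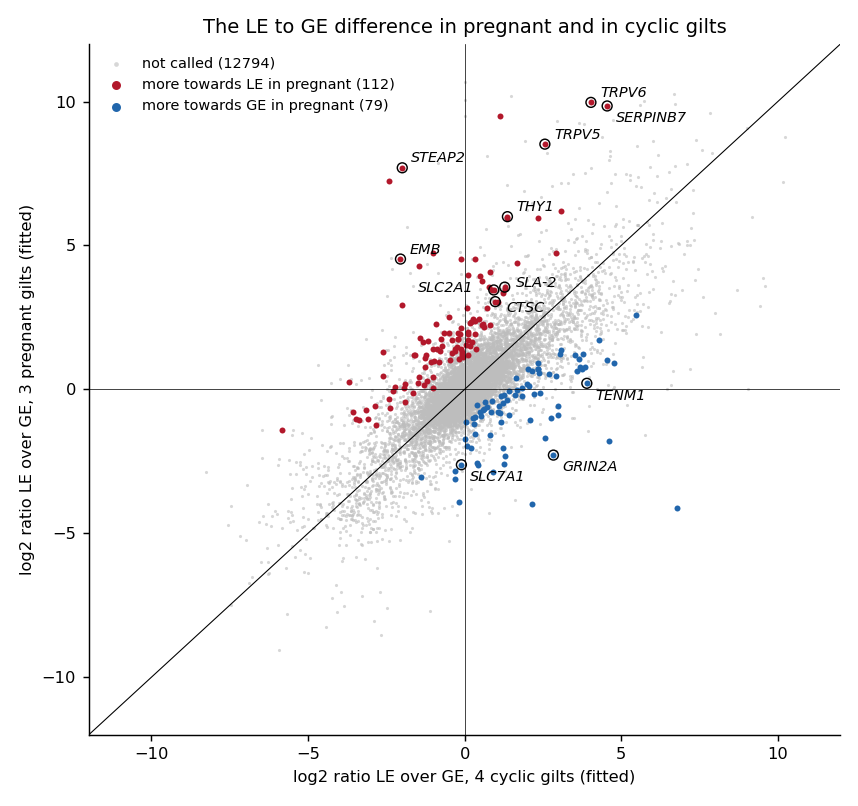
Fitted log2 ratio LE over GE in 3 pregnant gilts against that in 4 cyclic gilts for the 12985 genes tested; the diagonal marks equal ratios. The 112 and 79 coloured genes were called in the interaction, with STEAP2 and EMB above the diagonal and GRIN2A and TENM1 below it.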

How the data were processed

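The deposited files hold whole read counts per NCBI gene, 1 column per library, without normalization. The authors prepared PicoPure RNA with the Ovation SoLo kit, used Trim Galore on the reads, aligned with Hisat2 (genome Sscrofa11.1), took out PCR duplicates with nudup and counted per gene with QuasR. They supplied a full table of 30185 genes and a filtered one per compartment; the CPM minimum of the filter, tool versions, strand use and which libraries shared a sequencing pool are not given in the sources used here. Amplification from picograms of RNA adds noise to low counts.

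Genes in either filtered table were tested with counts from the full tables by edgeR's quasi-likelihood F test (edgeR 4.0.16, limma 3.58.1, R 4.3.3), with TMM over the 6 libraries, the gilt as a block and Benjamini-Hochberg adjustment over all 12985 genes. LE and GE of a gilt share the animal, so the pairing follows from the labels; deviations of the pairs from their group means correlated at r = 0.254 (gilt P139), 0.0958 (P39) and 0.237 (P43) across genes. The block leaves 2 residual degrees of freedom, and an exact sign-flip test of 3 pairs cannot go below a two-sided p of 0.25, so none is given. The SE is the coefficient over the root of its F statistic. The interaction was fitted likewise to 14 libraries of 7 gilts. CPM use the TMM sizes of these fits, and those of BV and S a joint scaling of all 31 libraries with counts. A gene with no count in a group is set against a floor of 3 counts over the group, and one with 1 to 3 counts is given as a ratio with an exact 95% binomial interval; both cover counting error only. Of 1344 list symbols 1282 matched the annotation. The steps were tested on simulated data.

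Named genes are 28 tested of 30 chosen ones, the 8 per direction with the smallest p among genes detectable in both compartments, the 8 per direction with the largest ratio and a mean of at least 20 CPM, up to 2 per direction of each list with at least 10 CPM, all with the same sign in 3 of 3 gilts, and the 5 with the smallest p of the interaction; SPAG6, ZMYND10 and list members named without values were added after the values were seen. Some genes that meet the rule are not reported here. The members, the 24 gene lists and the 7 marker lists were chosen with earlier results of these data known. Alternatives were no block, DESeq2 1.42.0, edgeR's robust likelihood ratio test, RLE, other filters, thinned counts, genes left out, a stricter threshold and each gilt left out; the count of cyclic calls without gilt C128 was added after seeing the data.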

Additional observations from a re-analysis of the deposited data

Results flagged for a closer look

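For 16 named genes the log2 ratio of LE over GE in pregnant gilts differed from that in cyclic gilts in the interaction test of edgeR (adjusted p between 0.000622 and 0.0481). It was higher in pregnant gilts by 9.69 for STEAP2, 6.58 for EMB, 5.96 for TRPV5, 5.94 for TRPV6, 5.30 for SERPINB7, 4.63 for THY1, 2.71 for SLA-5, 2.52 for SLC2A1, 2.27 for SLA-2 and 2.07 for CTSC. It was lower, with differences of -5.12 for GRIN2A, -3.76 for B3GALT2, -3.69 for TENM1, -3.06 for C10H9orf72, -2.52 for SLC7A1 and -2.04 for PDIA5. The cyclic ratios lay between -2.05 for EMB and 4.55 for SERPINB7.

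Among the cyclic values of these genes, 3 libraries lay far from the other 3 of their group by Dixon's criterion, which chance meets in about 1 of 20 groups, and 32 groups were looked at. They were STEAP2 in GE of gilt C42 with 9.22 CPM, next 7.83 CPM, SERPINB7 in GE of gilt C78 with 1.15 CPM, next 0.246 CPM, and TRPV6 in LE of gilt C78 with 109.7 CPM, next 54.3 CPM. No explanation was tested.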

How the results depend on the processing

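Without the gilt block 2037 genes were higher in LE and 1625 in GE, and of the 3732 genes called with the block 3290 (88.2%) were called without it. The block changed the call of LOC100514051, PROM1, CD163, HBB, KRT7 and C1QTNF3 among the named genes, which were not called without it. Under the other alternatives that kept all 3 gilts and the threshold of 5% the counts stayed within 1.5 times, from 1428 (genes higher in BV or S left out) to 2549 (robust likelihood ratio test) higher in LE and from 1259 (only genes detectable in both) to 2080 higher in GE, and all 3732 genes kept their direction with DESeq2, RLE or thinned counts. At a false discovery rate of 1% 720 and 527 genes were called. Leaving out a gilt gave 622 to 1947 genes higher in LE and 466 to 1626 higher in GE, the lowest without gilt P43; each leaves 1 residual degree of freedom, and the cause was not tested. The 191 genes of the interaction became 703 with DESeq2, 353 without a filter, 10 at 1% and 21 to 298 with a gilt left out; the cause of the first pair was not tested. Of the 3732 called genes 1 turned its sign, with LE of gilt P41 added and no block. Named genes that turned were not called: with a gilt left out, IRF1 lay between -0.762 and 0.092 and ESR1 between -0.14 and 0.26. Of the values of named genes under alternatives, 2070 kept direction and call, 2 turned, 103 lost the call, mostly with a gilt left out, and 7 gained it. RLE moved the median of all genes by less than 0.1. Of 922 counts over lists 757 stayed within 1.5 times.

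Depth limits genes near the floor of 0.256 CPM in GE: levels below it were not detectable, so absence from GE is not shown for WNT7A, CYP26A1, SERPINB11, S100A12 or CA3.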

Other observations

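LE of pregnant gilt P41 entered no fit except the alternatives without a gilt block to which it was added, because its GE was not analysed here. This library was set beside the GE libraries of the other 3 gilts. The called genes had been chosen with these same 3 GE libraries, so the shares below are not an independent test of the calls. The LE library of gilt P41 lay above all 3 GE libraries for 1933 of the 2008 genes called higher in LE (96.3%), as it did for 38.7% of all genes tested. It lay below all 3 for 1628 of the 1724 genes called higher in GE (94.4%), against 34.2% of all genes tested. Its levels were 907 CPM for TRPV6, 533 CPM for PTGS2, 441 CPM for MUC4, 205 CPM for STEAP2, 641 CPM for EMB and 612 CPM for SLC2A1, and 387 CPM for ACP5, 51.1 CPM for SYT13, 6.17 CPM for HYDIN and 0 counts for FOXA2. TRPV6, STEAP2, MUC4, EMB and SLC2A1 were thus lower than in LE of the other 3 gilts and still above every GE library. Not all named genes kept apart in this way. ESR2 was at 1.68 CPM in LE of gilt P41 against 1.84, 0 and 0.313 CPM in GE. ALDH1A1, called higher in GE, was at 234 CPM there against 233, 483 and 565 CPM in GE. These values use the joint scaling of all 31 libraries.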
